A study of Rattus norvegicus with 8 samples.

Results

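The midbrain dopaminergic transcription factors were taken as 8 genes, *Nr4a2*, *Pitx3*, *Foxa1*, *Foxa2*, *Lmx1a*, *Lmx1b*, *En1* and *En2*. Their members on the array were all non-control probes whose RefSeq accession maps to one of these symbols, which gave 11 probes of 7 genes among the 45598 non-control probes. *Nr4a2*, *Foxa1*, *Lmx1a* and *Lmx1b* had 2 probes each, *Pitx3*, *Foxa2* and *En2* had 1, and *En1* is named only. All 11 probes were above background on all 8 arrays, and all 11 were among the 33853 probes tested.

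RNA came from the *substantia nigra* (SN) of female Sprague Dawley rats that were 3 months old at surgery and received 1 unilateral intranigral injection of an AAV6 vector. The AAV-αSyn group (n = 4 arrays) received a vector carrying wild-type human α-synuclein at 5.2e10 vg/µL, and the AAV-Null group (n = 4) received a null vector at 5.3e9 vg/µL, so that the transgene and the titre cannot be told apart. The SN on the injected side was microdissected 20 weeks later and hybridised to an Agilent array that reports 1 Cy3 intensity per spot. Each array counts as 1 sample; the methods speak of 3 biological replicates per group where the series holds 4 arrays, and if arrays shared an animal the p-values would measure technical spread.

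These factors act at successive steps in the life of a midbrain dopaminergic (DA) neuron. *Lmx1a*, *Lmx1b*, *Foxa1* and *Foxa2* pattern the ventral midbrain and specify DA progenitors, *Nr4a2* (also called Nurr1) and *Pitx3* switch on the genes for dopamine synthesis and transport in newborn neurons, and *En1* and *En2* sustain the neurons afterwards. Most of them stay on in adult DA neurons, and several are also used by neighbouring populations: *Foxa1*, *Foxa2*, *Lmx1a* and *Lmx1b* by neurons of the subthalamic region and posterior hypothalamus, and *Lmx1b*, *En1* and *En2* by serotonergic neurons of the raphe. The comparison asked whether their transcripts differed between the SN of AAV-αSyn and AAV-Null rats.

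The promoters of *Pitx3* and *Slc6a3*, a DA gene downstream of these factors, are shown because these genes had closely similar differences between the groups, and the promoter of *En2* because it was the only factor with a higher mean in the AAV-αSyn group. They are the 300 bases from 250 before to 50 after the RefSeq start on the rat assembly GRCr8, all on the minus strand: *Pitx3* at chr1:254955276-254955575, *Slc6a3* at chr1:31578913-31579212 and *En2* at chr4:7960744-7961043. Capitals mark every match of 7 searched motifs on either strand: the nuclear receptor half-site AGGTCA, the bicoid-type site TAATCC that Pitx and Otx proteins bind, the forkhead site TGTTTAC, the homeodomain core TAATTA, the TATA box TATAAA, the CCAAT box, and the GC box GGGCGG.

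Pitx3: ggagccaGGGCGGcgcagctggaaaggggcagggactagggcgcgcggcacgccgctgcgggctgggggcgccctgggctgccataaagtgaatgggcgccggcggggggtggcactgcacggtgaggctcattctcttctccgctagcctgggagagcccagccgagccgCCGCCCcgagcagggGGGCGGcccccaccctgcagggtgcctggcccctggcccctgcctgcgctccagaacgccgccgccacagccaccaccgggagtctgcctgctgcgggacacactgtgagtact

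Slc6a3: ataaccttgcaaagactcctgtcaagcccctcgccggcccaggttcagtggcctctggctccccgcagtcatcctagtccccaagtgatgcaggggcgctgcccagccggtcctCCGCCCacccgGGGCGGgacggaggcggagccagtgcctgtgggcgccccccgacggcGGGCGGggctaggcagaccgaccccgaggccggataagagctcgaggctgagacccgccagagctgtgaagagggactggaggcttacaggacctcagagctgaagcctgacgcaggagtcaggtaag

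En2: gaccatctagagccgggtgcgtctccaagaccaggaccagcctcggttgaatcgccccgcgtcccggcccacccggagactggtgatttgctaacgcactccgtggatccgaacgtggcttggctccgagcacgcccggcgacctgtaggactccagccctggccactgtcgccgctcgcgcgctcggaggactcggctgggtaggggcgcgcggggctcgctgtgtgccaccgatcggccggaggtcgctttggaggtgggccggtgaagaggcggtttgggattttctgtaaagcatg

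The *Pitx3* and *Slc6a3* windows each held 3 GC boxes and no other match, and the *En2* window held none of the 7 motifs. GC boxes stood in 33.1% of all 33469 RefSeq promoters of this length. The share of G and C was 74.0% for *Pitx3*, 68.0% for *Slc6a3* and 67.0% for *En2*, so the window without a match was as rich in them as that of *Slc6a3*, against a median of 51.7% over all promoters. Of the 8 factors, 7 had a listed promoter (*Foxa1* is named only), and 5 of these 7 held at least 1 match. *Lmx1b* held 4 GC boxes, *Lmx1a* 2, *Foxa2* a CCAAT box and 2 TATA boxes that overlap on opposite strands, and *En1* a bicoid-type site, 2 CCAAT boxes and a GC box, while *Nr4a2* held none. The bicoid-type site was present in 7.17% of all promoters, the nuclear receptor half-site in 16.2%, the forkhead site in 3.78%, the homeodomain core in 5.36%, the TATA box in 14.2% and the CCAAT box in 37.5%. A match is a description of these letters only.

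The factor probes leaned toward lower values in the AAV-αSyn group, and none passed the multiple-testing correction. Of the 11 probes, 10 had a lower mean in the AAV-αSyn group, where 47.6% of all probes tested were lower, and their median log2 fold change (AAV-αSyn minus AAV-Null) was -0.34 against 0.01 over all probes. At an unadjusted limma p under 0.05 there were 2 factor probes, *Pitx3* and 1 probe of *Foxa1*, both lower and none higher. Of all probes, 2.32% were lower and 3.31% higher at this threshold, or 5.64% in either direction. A log2 fold change of -0.5 or lower was seen for 3 factor probes and 2.27% of all probes. After Benjamini-Hochberg adjustment over all probes tested, 0 of 11 factor probes passed (0.0148%, or 5 probes, of all tested), with 0.649 as their smallest adjusted p. On simulated arrays with the spread of these and independent noise, 100 random probes were given a log2 change of 0.75 and 100 others a change of 2. The same limma fit recovered 54 of the 100 probes at 0.75 after adjustment, and 11 unchanged probes were called. So many changed probes ease the adjustment, and the recovered share is not a rate for these factors. A change of the size seen for *Pitx3* could be missed at this number of arrays. In bulk tissue, fewer DA neurons and less RNA per neuron cannot be told apart. With 4 arrays a group, precision is limited by their number.

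**Figure D1:**
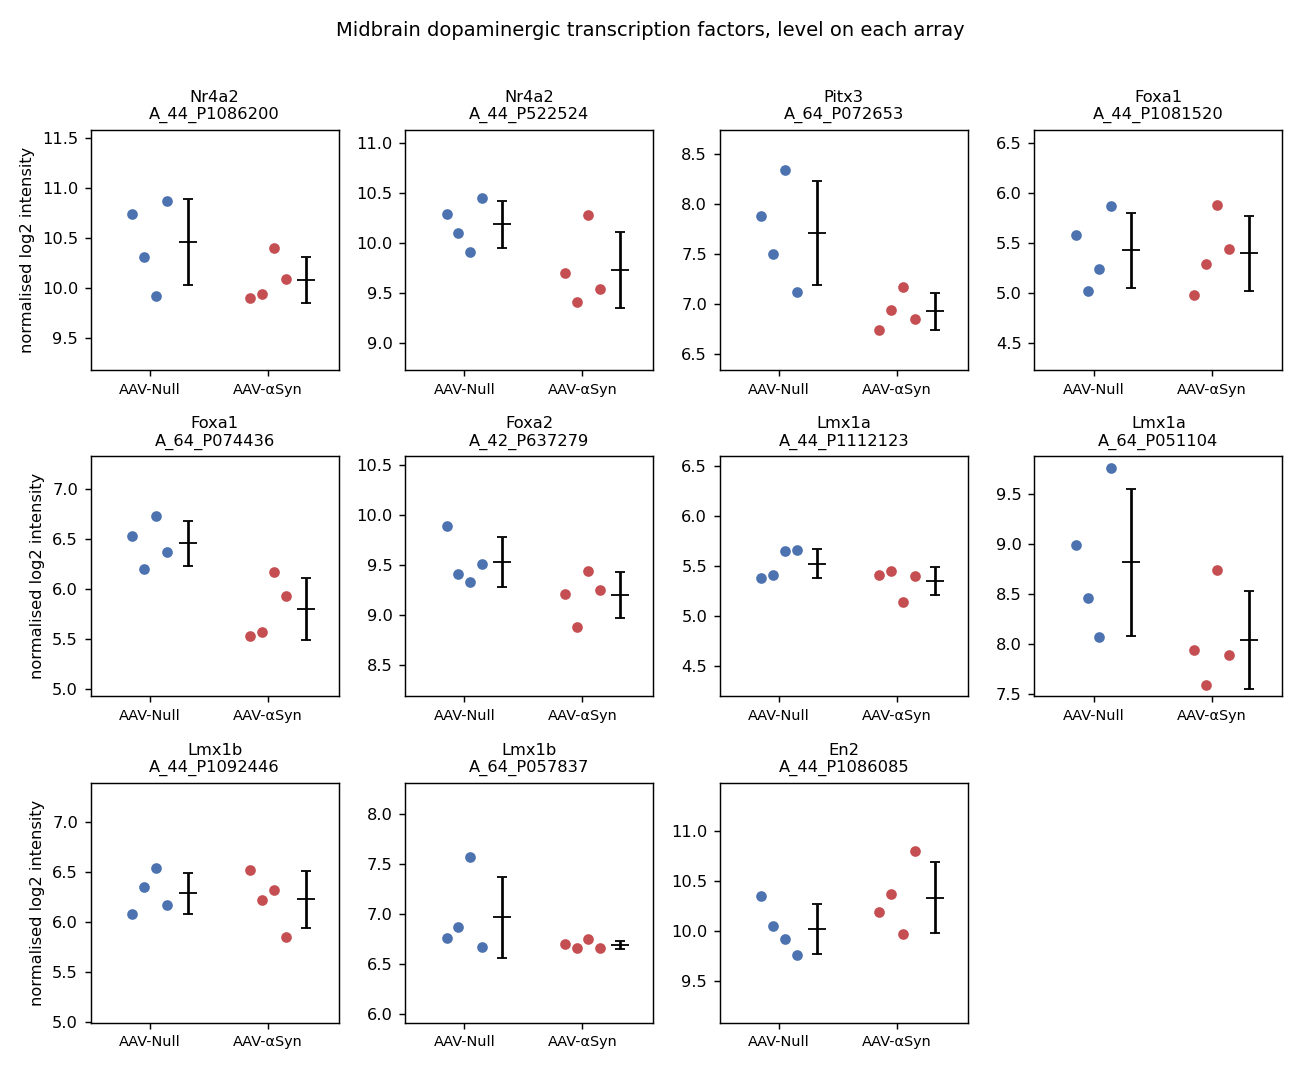
Normalised log2 intensity of each of the 11 factor probes (panels) on each array, with AAV-Null in blue and AAV-αSyn in red (4 points each, 1 per array) and the mean ± SD in black; every panel spans the same number of log2 units. The *Foxa1* probe A_64_P074436 is the only panel whose groups do not overlap, and *En2* is the only one with a higher AAV-αSyn mean.

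*Pitx3* encodes the paired-like homeodomain protein that, in the brain, is largely restricted to midbrain DA neurons and is required for those of the SN. The AAV-Null arrays had normalised log2 intensities of 7.88, 7.51, 8.35 and 7.12 in replicates 1 to 4, and the AAV-αSyn arrays 6.74, 6.95, 7.17 and 6.85 (probe A_64_P072653). All AAV-αSyn arrays lay at the bottom of the range, but AAV-Null replicate 4 fell just under AAV-αSyn replicate 3, so the groups overlapped. *Pitx3* averaged 7.71 ± 0.52 (SD, n = 4) with AAV-Null and 6.93 ± 0.18 (SD, n = 4) with AAV-αSyn, a 1.72-fold lower level. The log2 fold change was -0.78 ± 0.25 (SE), with a limma p of 0.0124, an adjusted p of 0.747 and an exact permutation p of 0.0571. The spread was wider among the AAV-Null arrays. Each side of the slide held 2 arrays of each group, and the log2 difference was -0.36 on the first side and -1.21 on the second.

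*Foxa1*, a forkhead pioneer factor that opens chromatin in DA progenitors and is kept on in mature DA neurons, gave different readings with its 2 probes. Probe A_64_P074436 read 6.53, 6.20, 6.72 and 6.37 on the AAV-Null arrays and 5.52, 5.57, 6.17 and 5.93 on the AAV-αSyn arrays. All 4 AAV-αSyn arrays were below all 4 AAV-Null arrays, which was so for 1.26% of all probes (2.57% were separate in the higher direction, and 3.83% in either), although AAV-αSyn replicate 3 missed the lowest AAV-Null array by little. Its log2 fold change was -0.66 ± 0.17 (SE; 1.58-fold lower), with a limma p of 0.00532, an adjusted p of 0.649 and an exact permutation p of 0.0286, the smallest that 4 arrays against 4 can give. The difference was -0.43 on the first side of the slide and -0.88 on the second. Probe A_44_P1081520 read 5.58, 5.02, 5.23 and 5.87 on the AAV-Null arrays and 4.98, 5.28, 5.88 and 5.43 on the AAV-αSyn arrays. Here the groups overlapped almost wholly, with a log2 fold change of -0.03 ± 0.24 (SE; limma p = 0.898, exact permutation p = 0.943). The fold changes of the 2 probes differed by 0.62 on the log2 scale (exact permutation p = 0.0571), and the mean of both probes was 0.34 lower in the AAV-αSyn group with a limma p of 0.0989, so the lower level of *Foxa1* rests on 1 probe.

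*Foxa2*, its close relative, which specifies the floor plate and supports DA neurons in the adult, had log2 intensities of 9.89, 9.41, 9.33 and 9.51 on the AAV-Null arrays. The AAV-αSyn arrays read 9.21, 8.89, 9.44 and 9.26. Apart from AAV-αSyn replicate 3, all of these were below every AAV-Null array. The log2 fold change was -0.34 ± 0.16 (SE; 1.26-fold lower), with a limma p of 0.0632, an adjusted p of 0.902 and an exact permutation p of 0.0857. It was -0.22 without AAV-Null replicate 1.

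*Nr4a2* encodes the orphan nuclear receptor that, with *Pitx3*, activates *Th*, *Slc6a3* and *Slc18a2*. Probe A_44_P1086200 read 10.74, 10.32, 9.92 and 10.87 on the AAV-Null arrays and 9.90, 9.94, 10.40 and 10.09 on the AAV-αSyn arrays. Probe A_44_P522524 read 10.28, 10.09, 9.91 and 10.45, against 9.70, 9.40, 10.27 and 9.53. Both probes placed AAV-Null replicate 3 lowest in its group and AAV-αSyn replicate 3 highest in its own, and the groups overlapped in both. Their log2 fold changes were -0.38 ± 0.22 (SE; limma p = 0.117, adjusted p = 0.947) and -0.46 ± 0.20 (SE; limma p = 0.0523, adjusted p = 0.884), and the difference between them was 0.08 (exact permutation p = 0.6). Without AAV-Null replicate 3, both *Nr4a2* probes, *Foxa2* and *Lmx1a* passed an unadjusted p of 0.05 beside *Pitx3* and *Foxa1*, 6 probes in all, and without AAV-αSyn replicate 3 there were 5. Without AAV-Null replicate 4, on the other hand, the *Nr4a2* differences were -0.24 and -0.37.

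*Lmx1a* and *Lmx1b* are LIM homeodomain factors that act together in DA progenitors and, later, in the upkeep of mature DA neurons. *Lmx1a* varied most from array to array: probe A_64_P051104 read 8.99, 8.46, 8.07 and 9.77 on the AAV-Null arrays and 7.94, 7.59, 8.75 and 7.89 on the AAV-αSyn arrays. AAV-Null replicate 4 stood highest, and the groups overlapped through AAV-Null replicates 2 and 3 and AAV-αSyn replicate 3. Its log2 fold change, -0.78 ± 0.39 (SE; 1.72-fold lower), was as large as that of *Pitx3* but had a limma p of 0.0775, an adjusted p of 0.920 and an exact permutation p of 0.143. Without AAV-Null replicate 4 the difference was -0.46. As the mean of both probes it was -0.48, with an unadjusted limma p under 0.05. The dimmer *Lmx1a* probe, A_44_P1112123, which was designed on a predicted transcript, spanned only 5.13 to 5.65 over the 8 arrays, with a log2 fold change of -0.18 ± 0.11 (SE; limma p = 0.133, exact permutation p = 0.229).

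*Lmx1b* read 6.76, 6.87, 7.56 and 6.67 on the AAV-Null arrays and 6.69, 6.66, 6.74 and 6.66 on the AAV-αSyn arrays (probe A_64_P057837). The AAV-αSyn arrays were nearly equal, and AAV-Null replicate 3 alone stood well above them. The log2 fold change of -0.28 ± 0.19 (SE; limma p = 0.176, exact permutation p = 0.114) was -0.08 without that array. The other probe, A_44_P1092446, ranged from 5.85 to 6.53 with no separation of the groups and a log2 fold change of -0.06 ± 0.16 (SE; limma p = 0.728, exact permutation p = 0.771).

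*En2*, an engrailed homeodomain factor that marks the midbrain-hindbrain region and supports DA neuron survival, was the only factor with a higher mean in the AAV-αSyn group. Its probe A_44_P1086085 read 10.35, 10.05, 9.92 and 9.76 on the AAV-Null arrays and 10.20, 10.38, 9.97 and 10.81 on the AAV-αSyn arrays. AAV-αSyn replicate 4 was highest and AAV-Null replicate 4 lowest, and the other arrays were intermixed. The log2 fold change was 0.32 ± 0.19 (SE; 1.25-fold higher), with a limma p of 0.142, an adjusted p of 0.961 and an exact permutation p of 0.2. Without AAV-αSyn replicate 4 the difference was 0.16.

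**Figure D2:**
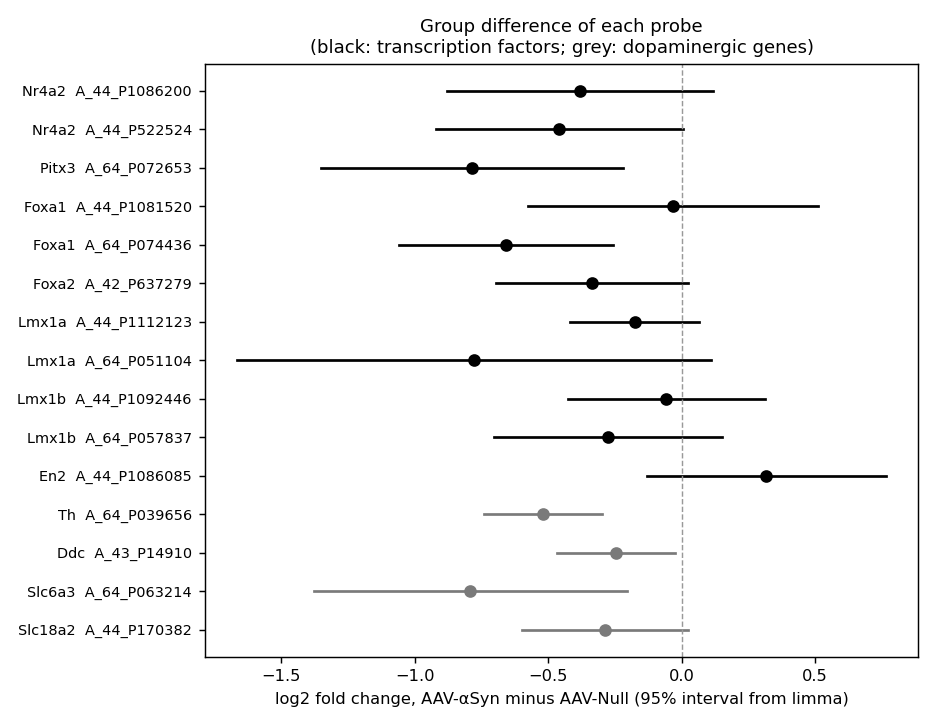
Log2 fold change (AAV-αSyn minus AAV-Null, horizontal axis) of each factor probe in black and of the DA genes *Th*, *Ddc*, *Slc6a3* and *Slc18a2* in grey, with 95% intervals from limma. The intervals of *Pitx3* (-1.35 to -0.22) and *Foxa1* A_64_P074436 (-1.06 to -0.26) lie below 0, and those of the other 9 factor probes include it.

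The DA genes that these factors control had lower means in the AAV-αSyn group too. *Th*, which encodes the rate-limiting enzyme of dopamine synthesis, differed by -0.52 (limma p = 0.000604, adjusted p = 0.484, exact permutation p = 0.0286). *Ddc*, the enzyme of the next step, differed by -0.25 (limma p = 0.0327, exact permutation p = 0.0286). *Slc6a3*, the dopamine transporter, differed by -0.79 (limma p = 0.0142, exact permutation p = 0.0571), and *Slc18a2*, the vesicular monoamine transporter, by -0.29 (limma p = 0.0653, exact permutation p = 0.171). The *Slc6a3* groups overlapped, its difference was -0.28 on the first side of the slide and -1.31 on the second, and it had an unadjusted limma p under 0.05 in 8 of the 16 ways of leaving out 1 array of each group. The direction was that of 6 of the 7 factors. The mean log2 level of the 4 DA genes was 13.94 ± 0.21 (SD, n = 4) with AAV-Null and 13.48 ± 0.11 (SD, n = 4) with AAV-αSyn, a difference of -0.46 with non-overlapping groups (exact permutation p = 0.0286).

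To ask whether a factor and the DA genes differed unequally, the mean level of the 4 DA genes was subtracted from each factor's brightest probe on the same array, and 7 such differences were tested. For *En2* the relative level was -3.92 ± 0.13 (SD, n = 4) with AAV-Null and -3.14 ± 0.41 (SD, n = 4) with AAV-αSyn. The groups of arrays were separate, and the shift was 0.78 on the log2 scale (exact permutation p = 0.0286, adjusted p = 0.2 over the 7 factors). *En2* itself differed by 0.32 with overlapping groups, while the subtracted DA mean differed by -0.46 with non-overlapping groups. A gene with equal levels in both groups would thus also shift upward. The share of all probes that separate on this scale was not computed. For the other 6 factors the groups overlapped and the shift was smaller: -0.32 for *Pitx3* (exact permutation p = 0.0857), -0.32 for *Lmx1a*, -0.19 for *Foxa1*, 0.08 for *Nr4a2*, 0.12 for *Foxa2* and 0.19 for *Lmx1b*, with adjusted p of 0.3 or more. With 4 arrays against 4 and 7 tests, a single factor at the smallest exact permutation p cannot have an adjusted p below 0.2, so this correction could not be passed by 1 factor alone. The sign for *Foxa1* turned to 0.08 with normexp, another background correction, that for *Nr4a2* to -0.12 without AAV-Null replicate 3, and that for *Lmx1a* to 0.08 without AAV-Null replicate 4. The shift of *Pitx3* was -0.14 without AAV-Null replicate 3 and -0.15 with normexp, and it ranged from -0.44 to -0.14 without 1 array. Without 1 array, that of *Lmx1b* ranged from 0.03 to 0.36 and that of *Foxa2* from 0.03 to 0.21.

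**Figure D3:**
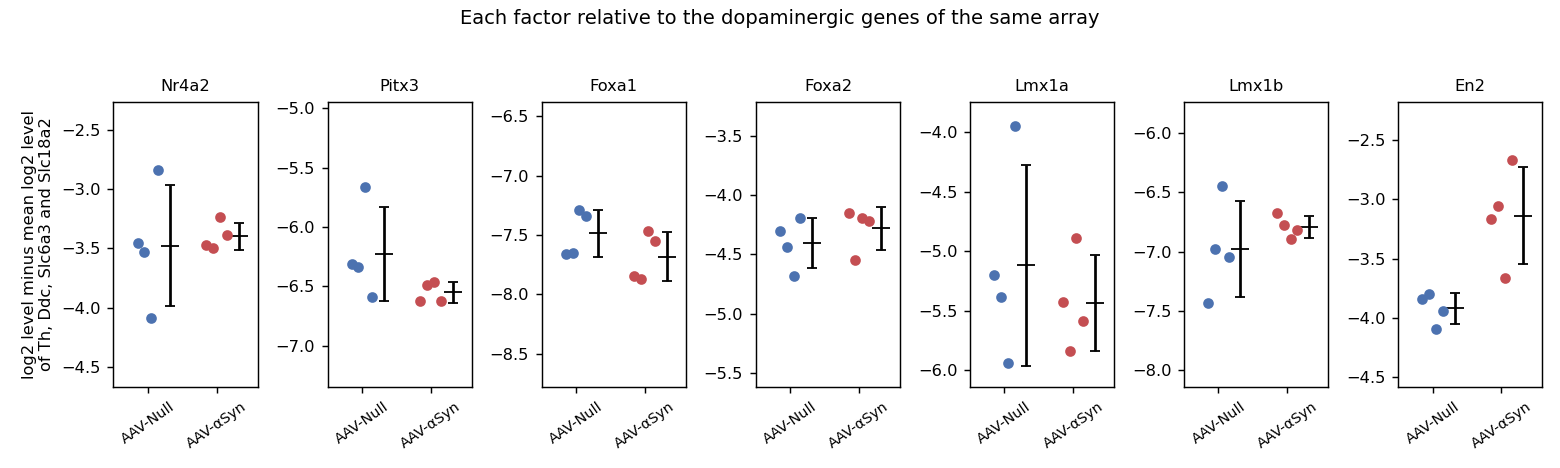
Log2 level of each factor's brightest probe minus the mean log2 level of *Th*, *Ddc*, *Slc6a3* and *Slc18a2* on the same array (vertical axis), with AAV-Null in blue and AAV-αSyn in red (4 arrays each) and the mean ± SD in black; every panel spans the same number of log2 units. The groups are separate for *En2* and overlap for the other 6 factors, and the subtracted mean was itself lower in the AAV-αSyn group.

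Within the groups, some factors went up and down together from array to array. After each group's mean was subtracted, *Nr4a2* (A_44_P1086200) and *Lmx1a* (A_64_P051104) had a Pearson r of 0.92 over the 8 arrays, though the dimmer *Lmx1a* probe gave -0.43 with it. The r of *Nr4a2* and *Foxa2* was 0.68, and that of *Pitx3* and *Lmx1b* (A_64_P057837) 0.82, where the other *Lmx1b* probe gave 0.31. *Pitx3* went most closely with *Slc6a3* among the 4 DA genes, at r = 0.94, and its r with the same *Nr4a2* probe was -0.49 and with the brighter *Lmx1a* probe -0.50, while the second probe of each gave -0.20 and -0.19. The points share tissue pieces and hybridisations, and these values describe 8 arrays only. Among 16148 named probes above background on all arrays, the closest to *Pitx3* were *Arnt* (r = 0.98), *Cdkn3* and *Ppp4c* (each 0.98), and the closest to *Nr4a2* were *Abhd11-as1* (0.98), *Dnaaf3* (0.97) and *Slitrk4* (0.97). *Slitrk4* was also among the 3 closest to *Lmx1a* (0.96), with *LOC103694361* (0.98) and *Sertm1* (0.96). For *Foxa1* they were *Grifin* (0.99), *Rbmx2* (0.97) and *Stxbp5l* (0.96), and for *Foxa2* *Hebp1* (0.97), *St6galnac5* (0.96) and *Spmap2l* (0.95). *Lmx1b* was closest to *Calcoco1*, *Taf10* and *Ino80b* (each 0.998), and *En2* to *Osm* (0.93), *Asah2* and *Shisa3* (each 0.92). With 8 arrays and so many probes, high values are easily reached, and nothing is drawn from these names.

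Markers of neighbouring cell groups also varied between arrays. Subthalamic and posterior hypothalamic neurons use *Lmx1a* and *Foxa1*. Of 5 tested markers of these neurons, 4 had a lower mean in the AAV-αSyn group (median log2 fold change -0.48), where 47.6% of all probes were lower. None of the 4 had an unadjusted limma p under 0.05, and 1 of them, *Barhl2*, was above background on 2 of the 8 arrays only. With it included, the mean log2 level of the markers ranged from 6.6 to 7.69 over the AAV-Null arrays and from 5.89 to 6.85 over the AAV-αSyn arrays. AAV-Null replicate 4, the array highest in *Lmx1a* and *Nr4a2*, was also the one at 7.69, with *Foxb1*, a factor of the posterior hypothalamus, at 9.50 against 6.77 to 8.56 on the other arrays. *Barhl1*, a factor of the subthalamic region, was also highest there, at 7.61 against 5.67 to 7.08, and its within-group r with *Lmx1a* was 0.16. *Irx5*, the only marker of this list at an unadjusted limma p under 0.05, went the other way: it was 0.31 higher in the AAV-αSyn group (exact permutation p = 0.0571) and lowest of all arrays on AAV-Null replicate 4, at 9.67.

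All 6 markers of serotonergic raphe neurons had a higher mean in the AAV-αSyn group (47.6% of all probes were lower), but only 2 had an unadjusted limma p under 0.05. *Gata2* was at 0.04, *Htr1a* at 0.12 and *Gata3* at 0.15, and *Fev* was above background on 4 of the 8 arrays only. With all 6 included, their mean log2 level ranged from 6.10 to 7.95 over the AAV-Null arrays and from 7.37 to 8.24 over the AAV-αSyn arrays. *Tph2*, the enzyme of serotonin synthesis in these neurons, was 2.35 higher (limma p = 0.00318, exact permutation p = 0.0571), and *Slc6a4*, the serotonin transporter, 2.30 higher (limma p = 0.0162, exact permutation p = 0.0857). AAV-Null replicate 3, with the highest *Lmx1b* and the lowest *Nr4a2* of its group, was the AAV-Null array at 7.95. The within-group r of *Lmx1b* (A_64_P057837) was 0.69 with *Tph2* and 0.78 with *Slc6a4*, that of the other *Lmx1b* probe was 0.03 and 0.15, and that of *En2* was 0.18 and 0.07. Of 4 tested *Hox* genes of the hindbrain, none was above background on all arrays. *Hoxa2* read 3.90 to 5.07 on the AAV-Null arrays and 5.16 to 5.76 on the AAV-αSyn arrays, with an unadjusted limma p under 0.05 (exact permutation p = 0.0286). *Hoxa4* and *Hoxb3* were each above background on 2 of the 8 arrays only, AAV-αSyn replicates 2 and 3. They passed the filter only through the group in which they were high, so their direction is not counted and no test is given for them. Of 5 cerebellar markers, 3 were tested, and the probes of the other 2, *Gabra6* and *Cbln3*, were not above background on any array. *Zic1* was 1.47 lower in the AAV-αSyn group with overlapping groups (exact permutation p = 0.0571), while *Neurod1* was at 0.17 and *Pcp2* at -0.03. The defining markers of DA neurons were present on every array, with a mean log2 level of 12.56 to 13.04 in the AAV-Null group and 12.25 to 12.51 in the AAV-αSyn group. Of 2 red nucleus markers, 1 had a probe and it was not well above background. The markers of GABAergic neurons, astrocytes, oligodendrocytes, microglia, ependyma and neurons in general had median log2 fold changes between -0.08 and 0.14, with *Syt1* (-0.40) the only gene of these lists at an unadjusted p under 0.05. Among the ependyma and choroid plexus markers, *Ttr* (1.28) was uneven, at 12.33 on AAV-αSyn replicate 2 against 6.64 to 8.91 on the other arrays. The part of these neighbouring cell groups in the values of *Lmx1a*, *Lmx1b*, *Foxa1*, *Foxa2*, *Nr4a2* and *En2* was not tested.

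**Figure D4:**
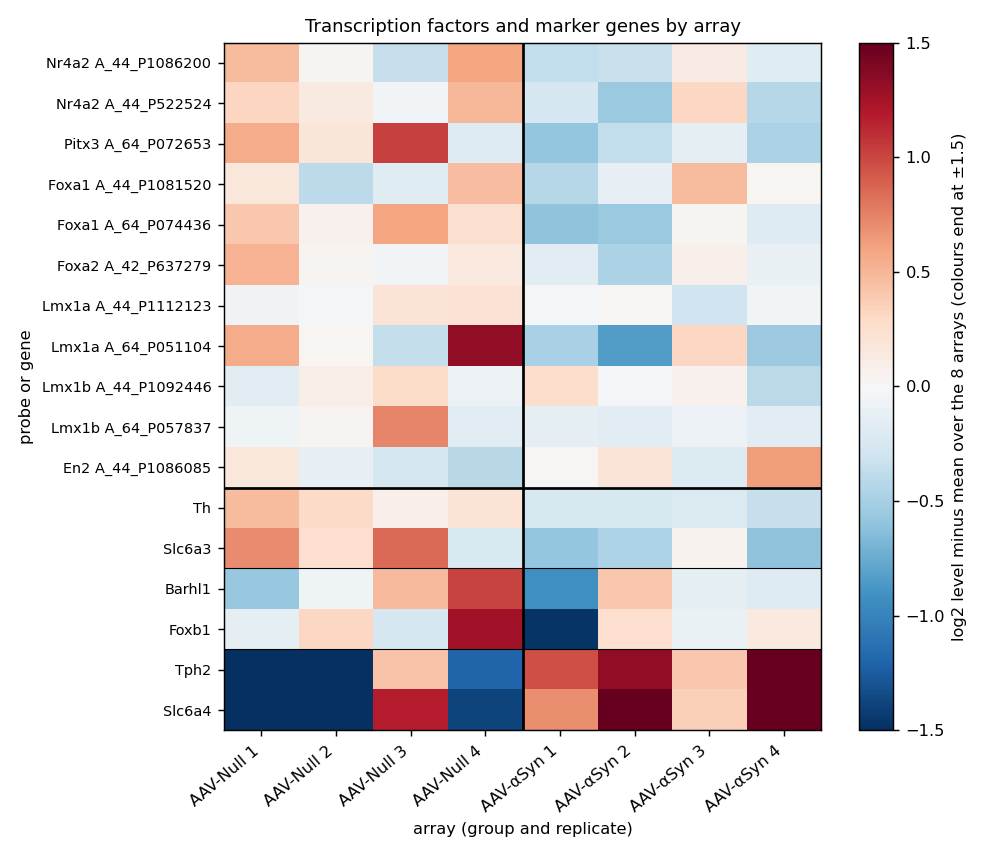
Log2 level of each factor probe and of marker genes (rows) on each array (columns), minus the mean over the 8 arrays; the colour scale ends at -1.5 and 1.5 and values beyond it take the end colour. AAV-Null replicate 4 stands out in *Lmx1a* and the marker genes *Barhl1* and *Foxb1*, and AAV-Null replicate 3 carries the raphe genes *Tph2* and *Slc6a4* that are low on the other AAV-Null arrays.

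Of 18 effectors and known targets of these factors, 17 had a probe, and 15 of the 17 had a lower mean in the AAV-αSyn group, with a median log2 fold change of -0.27 (47.6% of all probes were lower). At an unadjusted limma p under 0.05 there were 7, all lower, where 2.32% of all probes were: *Th*, *Ddc*, *Slc6a3*, the autoreceptor gene *Drd2* (-0.33), the nicotinic receptor subunits *Chrna6* (-0.56) and *Chrnb3* (-0.52), and the neuropeptide gene *Cck* (-0.78). The groups overlapped for both subunits, and the differences on the first and second sides of the slide were -0.11 and -1.01 for *Chrna6* and -0.03 and -1.0 for *Chrnb3*. *Cck* came nearest to the correction, with 15.88 ± 0.12 (SD, n = 4) with AAV-Null, 15.10 ± 0.12 (SD, n = 4) with AAV-αSyn and an adjusted p of 0.0919 from limma. The GDNF receptor *Ret* was at -0.27 and its co-receptor *Gfra1* at -0.05, neither with a p under the threshold. *Gch1*, which supplies the cofactor of tyrosine hydroxylase, was at 0.14. None of the 17 passed the adjustment. The paper had already named *Th*, *Slc6a3* and *Ddc* from this microarray before its multiple-testing correction, so these genes add no independent support to the count. The count of 7 was 4 without AAV-Null replicate 1 or AAV-αSyn replicate 2, and *Ddc* was above the threshold in both of these, without AAV-αSyn replicate 1 or 3, and under a replicate block.

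Of 28 other regulators of midbrain DA neurons, 25 were tested, of which 18 had a lower and 7 a higher mean in the AAV-αSyn group, with a median log2 fold change of -0.15. At an unadjusted limma p under 0.05 there were 4 lower and 4 higher regulators, against 2.32% and 3.31% of all probes. Lower were *Otx2* (-0.49), which sets midbrain identity, *Foxp2* (-0.53), *Bcl11a* (-0.37) and *Gbx2* (-2.0), the anterior hindbrain factor that opposes *Otx2*. *Gbx2* was uneven, at 5.71 on AAV-αSyn replicate 4 and 8.69 to 9.89 on the other AAV-αSyn arrays, against 9.75 to 11.20 on the AAV-Null arrays. Higher were *Pbx3* (0.40), the floor plate signal *Shh* (0.39), and *Nr4a1* (0.52) and *Nr4a3* (0.51), the nuclear receptors most closely related to *Nr4a2*. *Nr4a1* read 10.02, 9.96, 9.60 and 9.69 on the AAV-Null arrays and 10.29, 10.30, 10.42 and 10.35 on the AAV-αSyn arrays, so the groups were separate, as for 2.57% of all probes in this direction (limma p = 0.00135, adjusted p = 0.555, exact permutation p = 0.0286). Both relatives of *Nr4a2*, which respond to neuronal activity, thus lay on the other side of 0 from *Nr4a2* itself, and the difference between the 3 genes was not tested. None of the 25 regulators passed the adjustment. The 4 lower and 4 higher regulators became 8 lower and 3 higher with array weights, and 2 were lower without AAV-Null replicate 2 or AAV-αSyn replicate 1. Without 1 array of each group, 2 to 6 were lower and 1 to 4 higher.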

How the data were processed

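Total RNA from the SN was measured on 8 one-colour Agilent arrays of 1 slide, 4 per group, grouped by the labels. Per the file headers, the scanner files hold for each spot an intensity in arbitrary units that the authors obtained with Feature Extraction (12.0.3.2 in the headers, 11.5.1.1 in the submitters' processing notes), corrected for background within the array only. A second deposited table, of quantile-normalized log2 values, served as an alternative.

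The processed intensity was taken to log2 without control and outlier spots, quantile normalized, and averaged per probe. Each array held 58717 non-control spots, of which 74.8% to 77.5% were above background. A probe was tested when at least 0.5 of its spots were well above background on at least 1 array. Groups were compared with limma 3.58.1 (lmFit and eBayes, two-sided, R 4.3.3) and Benjamini-Hochberg adjustment over the 33853 probes of the test at a threshold of 0.05. For single values, exact permutation tests (two-sided, difference in means) enumerated every division into 4 arrays against 4. Where a gene had several probes, the brightest stands for it. The fit was tested on simulated data.

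Probes were named by matching their accession to RefSeq symbols of GRCr8, which named 21229 of 45598 probes. Named genes are the factors, the DA genes, the list genes with an unadjusted p under 0.05 (a few others are given for context and were chosen after their values were seen), and the 3 probes most correlated with each factor. Some genes of these lists are not reported here. The factors and lists were chosen with earlier results of these data known. Alternatives were other scaling (75th percentile, cyclic loess), normexp with an offset of 50, other filters, the deposited matrix, a variance trend, array weights, the replicate number or slide side as a block, the mean of a gene's probes, and leaving out arrays.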

Additional observations from a re-analysis of the deposited data

How the results depend on the processing

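*Pitx3* stayed at an unadjusted p under 0.05 under all 11 processing alternatives (log2 fold change -0.79 to -0.60) and without any 1 array (-0.98 to -0.58), but only in 13 of the 16 ways of leaving out 1 array of each group, where it was lost without AAV-Null replicate 1 together with AAV-αSyn replicate 1, 2 or 4. *Foxa1* A_64_P074436 stayed under it in all of these (-0.78 to -0.57 without any 1 array), though at -0.37 with normexp and -0.45 with array weights, and was above it as the mean of its probes (-0.34). The count of factor probes at this threshold, 2, was 4 with cyclic loess, 4 with normexp and 4 with a variance trend, which added *Foxa2* and *Nr4a2* A_44_P522524. It ranged from 2 to 6 without 1 array and from 1 to 6 without 1 array of each group, as the methods state 3 per group. The count past the adjustment over all probes, 5, was 12 with array weights, 0 under a replicate block, 3 under a block for slide side, 3 to 5 without 1 array (3 without any one AAV-Null array) and 1 to 6 without 1 of each group. Under the replicate block, 2 factor probes still had an unadjusted limma p under 0.05. Same-numbered arrays had correlations of deviations of 0.10, 0.16, 0.20 and 0.01, and 3 of 4 arrays went best with their own number. Since not every correlation was over 0.1 and the labels do not say that a number marks shared animals or days, the numbers were not taken as pairs. The replicate number is also the slide row.

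Some differences turned sign. *Foxa1* A_44_P1081520 was 0.25 with array weights, -0.19 to 0.12 without 1 array and -0.33 to 0.26 without 1 of each group. *Lmx1b* A_44_P1092446 was -0.16 to 0.07 and -0.22 to 0.15. Relative to the DA genes, *Foxa1* was 0.080 with normexp, *Nr4a2* ranged from -0.12 to 0.29 and *Lmx1a* from -0.60 to 0.076 without 1 array, and *En2* stayed above 0 (0.62 to 0.95). Without 1 array, the log2 fold change of *En2* itself was 0.16 to 0.44, that of *Foxa2* -0.42 to -0.22 and those of *Nr4a2* -0.56 to -0.24 and -0.64 to -0.35. The cause of these differences was not tested. All factor probes were above background on all 8 arrays, and none was saturated.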
